A study of Mus musculus with 12 samples.

Results

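*Gsta4* and *Prdx2* encode antioxidant enzymes that were measured in mouse left ventricles (LVs) on a circular RNA (circRNA) array. Both were chosen by name, as the probes for linear RNA whose RefSeq accessions (NM_010357 and NM_011563) belong to these symbols, and each was represented by 1 probe. They are 2 of the 50 linear RNA probes on the array, of which 44 carry an accession with a gene symbol, and the array holds 14236 circRNA probes besides. All 12 mice were C57BL/6J and carried the GRK-beta1AR transgene, a cardiac-specific β1-adrenergic receptor mutant without the sites that G protein-coupled receptor kinases phosphorylate. TG mice carried this transgene alone, and the double transgenic (DTG) mice also carried miR-150 under a CAG promoter, which is not restricted to cardiomyocytes. Each line received vehicle or the β-adrenergic agonist isoproterenol (ISO) for 1 week, with 3 mice in each of the 4 groups, 1 female and 2 male. The vehicle TG mice were 9, 9 and 12 weeks old at harvest, the ISO TG mice 9, 10 and 10, the vehicle DTG mice 10 each, and the ISO DTG mice 10, 11 and 12. Vehicle TG is therefore a transgenic control, and mice without the receptor transgene are not analysed here. 1 mouse gave 1 array.

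Glutathione transferase alpha 4, the product of *Gsta4*, couples glutathione to reactive aldehydes such as 4-hydroxynonenal, which form when membrane lipids are oxidized. Peroxiredoxin 2, the product of *Prdx2*, is a cytosolic peroxidase that reduces hydrogen peroxide and is recycled by thioredoxin, and it is among the abundant proteins of red blood cells. Sustained β-adrenergic stimulation is known to raise the oxidative load of the heart, and the enzymes represent separate lines of defence, one against lipid aldehydes and the other against peroxide. Of the other genes listed, 16 glutathione transferases, 12 peroxiredoxins and thioredoxins, 17 further antioxidant enzymes and 4 of their regulators, 0 had a linear RNA probe, so the pathway around both enzymes was not measured. None of the listed markers of cardiomyocytes, fibroblasts, endothelial cells, macrophages, red blood cells or adipocytes had one either. The tissue label could not be checked against such markers. In LV tissue, fewer cells of a type and less RNA per cell cannot be told apart.

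Total RNA had been digested with RNase R, an exonuclease that removes linear RNA, so the values below describe what these probes bound after linear RNA was depleted. The 10 spots of each probe were well above background on all 12 arrays by the scanner software's mark. A stricter reference is the brightest of the 15 negative control probes, which gave 15.9 to 50.1 intensity units per array. *Gsta4* lay above it on 10 of 12 arrays and *Prdx2* on 11 of 12. Both arrays on which *Gsta4* lay below it were ISO TG arrays, replicates 1 and 2, and the array on which *Prdx2* lay below it was ISO TG replicate 1. The brightest negative control gave 25.5 to 50.1 units in ISO TG, 18.3 to 42.9 in vehicle TG, 16.5 to 26.9 in vehicle DTG and 15.9 to 18.0 in ISO DTG. Its part in the differences below was not tested. Within their groups, ISO TG replicates 1 and 2 and vehicle TG replicate 3 stood apart in other linear RNA probes. *Actb*, for cytoskeletal β-actin, had a log2 level of 3.33, 3.67 and 4.55 above the 75th percentile of the circRNA probes on these arrays and at most 2.99 on the others, and *Acaa2*, for a thiolase of mitochondrial fatty acid oxidation, was below this percentile on these arrays alone. The part of this in the differences was not tested. Comparisons I, II and IV and the interaction, which hold these arrays, are also given with 1 of them left out at a time. No fit left them out together.

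*Gsta4* gave a processed signal of 54.1, 129 and 238 intensity units on the vehicle TG arrays of replicates 1 to 3, as the geometric mean of the spots. It gave 27.7, 10.9 and 56.9 on the ISO TG arrays, 185, 70.4 and 158 on the vehicle DTG arrays, and 97.8, 75.7 and 70.5 on the ISO DTG arrays. The ISO TG signals were the lowest group, with replicate 2 far below the rest, although replicate 3 of ISO TG was brighter than replicate 1 of vehicle TG. For *Prdx2* the signals were 119, 92.2 and 264 units in vehicle TG and 48.2, 57.7 and 86.2 in ISO TG. They were 132, 103 and 160 units in vehicle DTG and 76.7, 86.1 and 123 in ISO DTG. These are signals before any scaling between arrays, and the 75th percentile of the circRNA probes ran from 79.9 to 105 units in ISO TG, from 127 to 155 in ISO DTG, from 134 to 169 in vehicle DTG and from 129 to 419 in vehicle TG. The 419 belonged to vehicle TG replicate 3, the array with the brightest *Gsta4* and *Prdx2* signals.

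**Figure D1:**
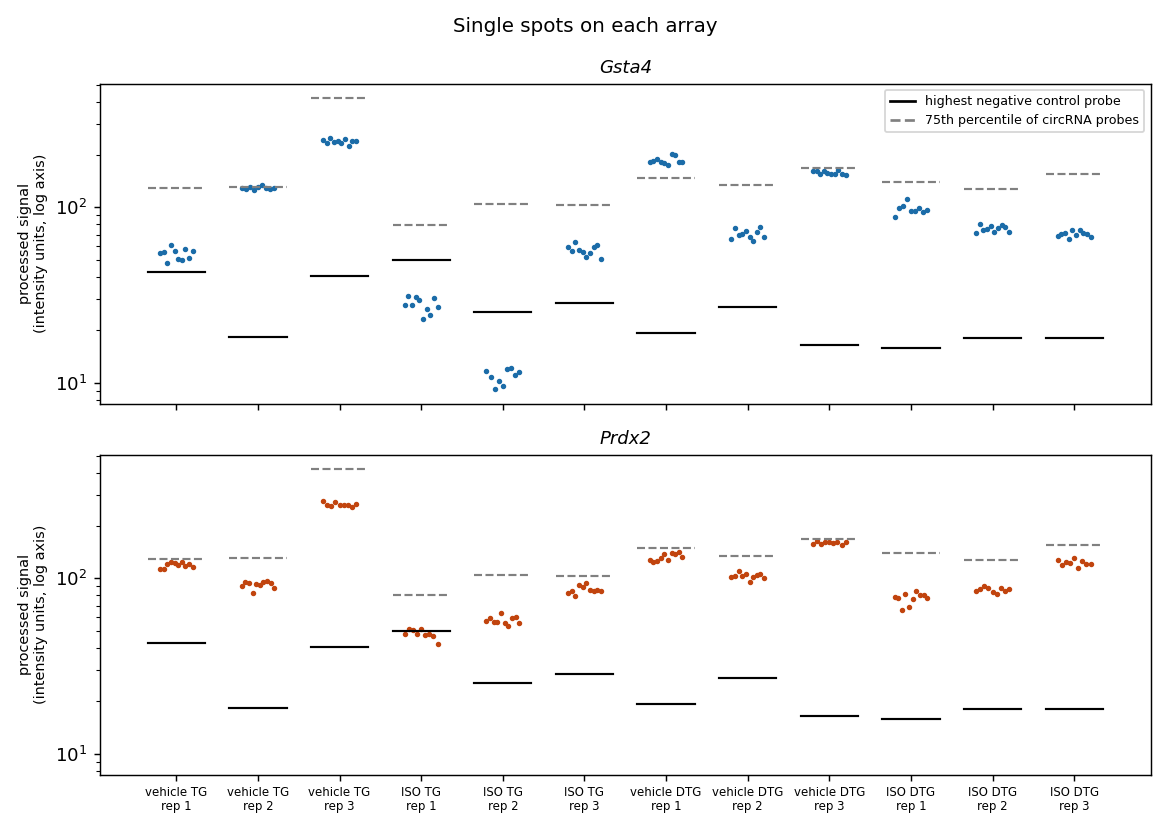
Processed signal of every spot of *Gsta4* (upper panel) and *Prdx2* (lower panel) on the 12 arrays, in intensity units on a log axis, without the spots marked as outliers. Solid bars give the brightest negative control probe and dashed bars the 75th percentile of the circRNA probes on the same array. The *Gsta4* spots of ISO TG replicates 1 and 2 lie under the solid bar, and the spots of 1 array lie close together compared with the distance between arrays.

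The spots of 1 array agreed closely. The SD between the spots was at most 0.14 on the log2 scale for *Gsta4* and at most 0.11 for *Prdx2*, with medians of 0.076 and 0.063. The SD between arrays of the same group, pooled over the 4 groups, was 0.78 for *Gsta4* and 0.26 for *Prdx2* after scaling. With 1 array per mouse, the second SD holds differences between mice together with those between digestions, labelings and hybridizations, which cannot be told apart. Precision was limited by having 3 arrays in a group.

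Levels are given below relative to the 75th percentile of the circRNA probes on the same array. The *Gsta4* level on the log2 scale was -1.25, -0.03 and -0.82 in vehicle TG, with a mean of -0.70 ± 0.62 (SD, n = 3). In ISO TG it was -1.53, -3.27 and -0.87, with a mean of -1.89 ± 1.24 (SD, n = 3). ISO TG had the lowest mean and the widest spread, and its highest array lay inside the range of vehicle TG. In vehicle DTG the level was 0.32, -0.93 and -0.10, with a mean of -0.24 ± 0.64 (SD, n = 3). In ISO DTG it was -0.52, -0.75 and -1.14, with a mean of -0.80 ± 0.31 (SD, n = 3). The order of the means was vehicle DTG, vehicle TG, ISO DTG and ISO TG, and the arrays of each neighbouring pair overlapped. The SD of 1.24 in ISO TG was larger than that of 97.5% of the tested probes in this group, where the median SD was 0.39. In vehicle TG, where the median SD of a probe was 0.69, 44.1% of the probes were less variable than *Gsta4*. This share was 90.9% in vehicle DTG and 80% in ISO DTG, so *Gsta4* was among the more variable probes in 3 of the 4 groups.

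The *Prdx2* level was -0.11, -0.51 and -0.67 in vehicle TG, with a mean of -0.43 ± 0.29 (SD, n = 3), and -0.73, -0.86 and -0.27 in ISO TG, with a mean of -0.62 ± 0.31 (SD, n = 3). It was -0.17, -0.38 and -0.08 in vehicle DTG, with a mean of -0.21 ± 0.16 (SD, n = 3), and -0.87, -0.56 and -0.34 in ISO DTG, with a mean of -0.59 ± 0.26 (SD, n = 3). All *Prdx2* arrays lay within a 1.73-fold range. The *Gsta4* range is not given as a fold, because its lowest array, ISO TG replicate 2, lay below the brightest negative control. The order of the means was the same as for *Gsta4*, from vehicle DTG through vehicle TG and ISO DTG to ISO TG. No neighbouring pair in this order was separated. ISO DTG replicate 3 at -0.34 lay just above vehicle DTG replicate 2 at -0.38.

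**Figure D2:**
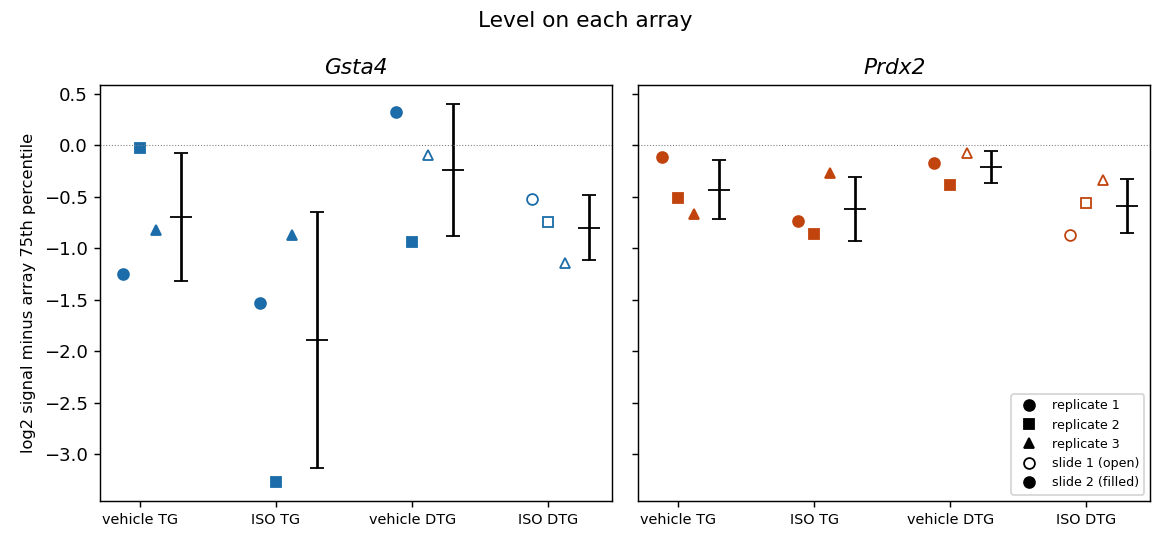
Level of *Gsta4* (left) and *Prdx2* (right) on each array, as log2 processed signal minus the 75th percentile of the circRNA probes on that array. Symbols mark the replicate number, open symbols slide 1 and filled symbols slide 2, and the black bars give the mean ± SD of 3 arrays. ISO TG replicate 2 has the lowest *Gsta4* level at -3.27, and the *Prdx2* levels lie between -0.87 and -0.08.

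The effect of ISO in TG mice was asked with ISO TG against vehicle TG (comparison I). *Gsta4* was lower in ISO TG on average, with a log2 difference of -1.19, a standard error of 0.56 and a 95% interval from -2.41 to 0.03. The difference did not pass limma's test after Benjamini-Hochberg adjustment over all 13076 probes tested (adjusted p = 0.365). It is not given as a fold, because *Gsta4* lay below the brightest negative control on ISO TG replicates 1 and 2. *Prdx2* differed by -0.19 with a standard error of 0.27 (95% interval -0.78 to 0.40, adjusted p = 0.712). At an adjusted limit of 0.05, 0% of the tested probes were called in comparison I, and 13.7% had an unadjusted p below 0.05 in limma. The groups did not overlap for 9.97% of the probes. Both genes overlapped between the groups, with 2 of 3 ISO TG arrays below all vehicle TG arrays for each gene, and an exact permutation test gave a two-sided p of 0.20 for *Gsta4* and 0.50 for *Prdx2*. With 3 arrays against 3, this test cannot give a p under 0.10. Without ISO TG replicate 2, the *Gsta4* difference was -0.50, and without ISO TG replicate 3 it was -1.70. It was -1.37 without ISO TG replicate 1 and -1.25 without vehicle TG replicate 3. *Prdx2* differed by -0.13 without ISO TG replicate 1, -0.070 without ISO TG replicate 2 and -0.31 without vehicle TG replicate 3, and by -0.030 without vehicle TG replicate 1. Without scaling between arrays, whose circRNA probes were dimmer in ISO TG, the differences were -2.20 for *Gsta4* and -1.20 for *Prdx2*, and neither passed the adjusted limit. With normexp background correction in place of the processed signal the *Gsta4* difference was -0.21. With array weights estimated from the same data it was -2.43 and passed limma's test (adjusted p = 0.0119). That weighted fit called 2586 of the 13076 probes tested in I, against 0 without weights. The weights were 0.27, 2.72 and 0.088 for vehicle TG replicates 1 to 3 and 0.54, 1.59 and 0.30 for ISO TG. The weighted difference therefore leaned on replicate 2 of each group, where *Gsta4* was highest in vehicle TG and lowest in ISO TG. All 6 arrays of comparison I were on slide 2.

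The effect of miR-150 overexpression under ISO was asked with ISO DTG against ISO TG (comparison II). *Gsta4* was higher in ISO DTG on average, with a log2 difference of 1.09 and a standard error of 0.56 (95% interval -0.13 to 2.31). The difference did not pass limma's test (adjusted p = 0.233). ISO TG replicates 1 and 2, below the brightest negative control, enter here too, so no fold is given. *Prdx2* differed by 0.03 with a standard error of 0.27 (95% interval -0.56 to 0.62, adjusted p = 0.950). In this comparison limma called 0% of the probes at the adjusted limit and 25.8% had an unadjusted p below 0.05. The groups did not overlap for 45.3% of the probes. The *Gsta4* arrays overlapped, because ISO TG replicate 3 at -0.87 was above ISO DTG replicate 3 at -1.14. The exact permutation p was 0.20 for *Gsta4* and 1.00 for *Prdx2*. Without ISO TG replicate 2 the *Gsta4* difference was 0.40, without ISO TG replicate 1 it was 1.27, and without ISO TG replicate 3 it was 1.60 (adjusted p = 0.0825 in limma). *Prdx2* differed by -0.025 without ISO TG replicate 1 and -0.090 without ISO TG replicate 2. The *Gsta4* difference was 0.17 with normexp and 1.78 with array weights, where it passed limma's test (adjusted p = 0.00829). The weighted fit called 6050 of 13069 probes in II, so such a call was common there. In the weighted fit, ISO TG replicate 2 had the highest weight of its group. The same ISO TG arrays enter comparisons I and II, so the low level on replicate 2 counts in both with opposite sign. The ISO DTG group was scanned on slide 1 and the ISO TG group on slide 2, so slide and group cannot be told apart by a within-slide value. With slide as a block, which rests on the vehicle DTG arrays of both slides, the difference was 0.88 with a standard error of 1.06 for *Gsta4* and -0.17 with a standard error of 0.51 for *Prdx2* (adjusted p = 1.00 for both in limma). In that fit 137 of 13069 probes had an unadjusted p below 0.05, in place of 3366. The slide term rests on 1 vehicle DTG array on slide 1 against 2 on slide 2. The standard error of *Gsta4* rose from 0.56 to 1.06, and how far wider standard errors account for the lower count was not tested.

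In DTG mice, ISO was compared with vehicle (comparison III). *Gsta4* was 1.48-fold lower in ISO DTG on average, with a log2 difference of -0.56 and a standard error of 0.56 (95% interval -1.78 to 0.66, adjusted p = 1.00 in limma). *Prdx2* was 1.30-fold lower, with a difference of -0.38 and a standard error of 0.27 (95% interval -0.97 to 0.21, adjusted p = 1.00). The background was 0% of probes at the adjusted limit and 1.84% at an unadjusted p below 0.05, and the groups did not overlap for 19.5%. Both genes overlapped, and the exact permutation p was 0.30 for *Gsta4* and 0.20 for *Prdx2*. On slide 1 alone, 3 ISO DTG arrays against the 1 vehicle DTG array gave -0.70 for *Gsta4* and -0.51 for *Prdx2*. Without vehicle DTG replicate 2 the *Gsta4* difference was -0.91, and without vehicle DTG replicate 1 it was -0.29.

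Between the lines without ISO, vehicle DTG was compared with vehicle TG (comparison IV). *Gsta4* was 1.38-fold higher in vehicle DTG, with a log2 difference of 0.46 and a standard error of 0.56 (95% interval -0.76 to 1.68, adjusted p = 1.00 in limma). *Prdx2* was 1.17-fold higher, with a difference of 0.22 and a standard error of 0.27 (95% interval -0.37 to 0.81, adjusted p = 1.00). The background was 0% of probes at the adjusted limit and 2.1% at an unadjusted p below 0.05, and the groups did not overlap for 5.96%. Both genes overlapped. The exact permutation p was 0.50 for *Gsta4* and 0.30 for *Prdx2*. On slide 2 alone, 2 vehicle DTG arrays against 3 vehicle TG arrays gave 0.39 and 0.16. Without vehicle TG replicate 3 the differences were 0.40 for *Gsta4* and 0.10 for *Prdx2*. Leaving out 1 array moved *Gsta4* from 0.18, without vehicle DTG replicate 1, to 0.81, without vehicle DTG replicate 2, and it was 0.19 without vehicle TG replicate 1 and 0.80 without vehicle TG replicate 2. Without scaling between arrays it was 0.10.

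Whether ISO acted differently in the lines was tested as an interaction, comparison III minus comparison I. It was 0.62 with a standard error of 0.79 for *Gsta4* (95% interval -1.10 to 2.35, adjusted p = 0.811 in limma), as the ISO effect was -1.19 in TG and -0.56 in DTG. For *Prdx2* it was -0.19 with a standard error of 0.38 (95% interval -1.03 to 0.64, adjusted p = 0.886). Limma called 0% of the probes for the interaction at the adjusted limit, and 4.92% had an unadjusted p below 0.05. The *Gsta4* interaction rested on ISO TG replicate 2, and without this array it was -0.07. It was 0.80 without ISO TG replicate 1 and 0.68 without vehicle TG replicate 3. The *Prdx2* interaction was -0.25, -0.31 and -0.072 without ISO TG replicate 1, ISO TG replicate 2 and vehicle TG replicate 3. It ran from -0.35, without vehicle TG replicate 1, to -0.016, without ISO TG replicate 3, and was -0.32 with slide as a block.

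**Figure D3:**
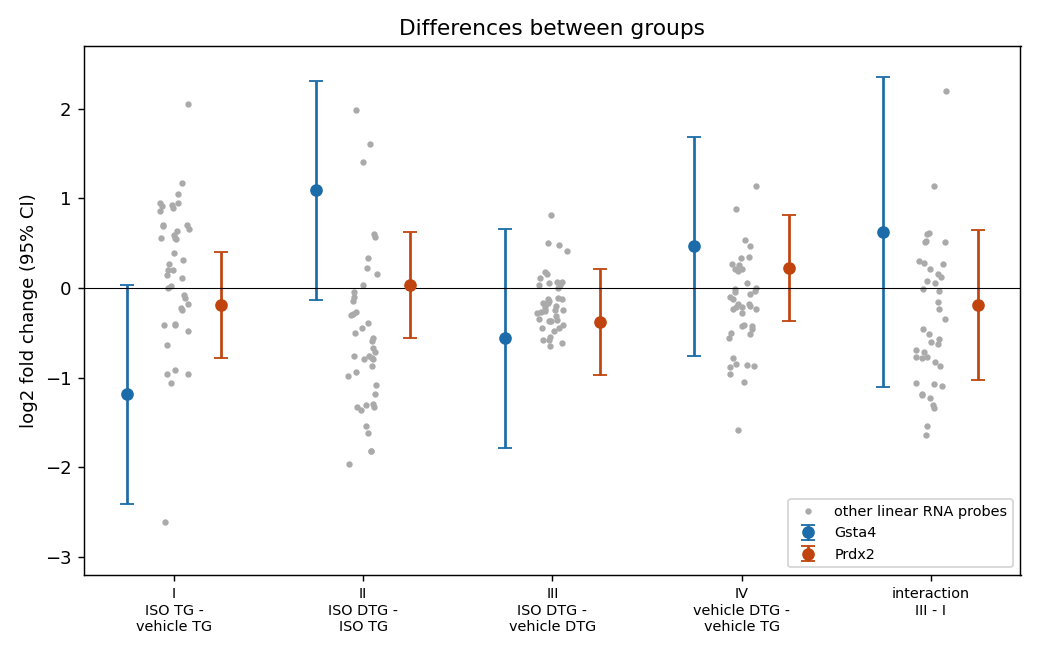
Log2 fold changes of *Gsta4* (blue) and *Prdx2* (red) with 95% confidence intervals from limma in the 4 comparisons and the interaction, on the 75th percentile scale. Grey points are the 42 other linear RNA probes tested. All intervals of both genes include 0, and the *Gsta4* change lies near the low end of the grey points in comparison I and near the high end in II.

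The other linear RNA probes were used to show how the members moved beside RNA of their own kind. In comparison I, the 42 other linear RNA probes tested had a median log2 difference of 0.24, with 27 higher and 15 lower in ISO TG, and the median over all tested probes was 0.09. *Gsta4* at -1.19 had 1 of the 42 below it, and *Prdx2* at -0.19 had 12. In comparison II, the median of these probes was -0.69, with 9 higher and 33 lower in ISO DTG, against -0.11 over all tested probes. Of the 42, 39 lay below *Gsta4* at 1.09 and 33 below *Prdx2* at 0.03. In comparison III the median was -0.22, with 4 probes below *Gsta4* and 9 below *Prdx2*. In comparison IV it was -0.19, with 38 and 34. At the adjusted limit limma called 0 of the 42 in each comparison.

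The values were therefore also scaled to the median of the 34 other linear RNA probes that were well above background on all 12 arrays. On this scale the *Prdx2* level was 0.01, 0.14 and 0.13 in vehicle TG and -0.20, -0.42 and -0.24 in ISO TG. In ISO DTG it was 0.18, 0.37 and 0.54, and in vehicle DTG it was 0.68, -0.33 and 1.18. The ISO TG arrays lay below all vehicle TG arrays and below all ISO DTG arrays, which was not so on the 75th percentile scale. Groups in this order without overlap were found for 4.39% of all tested probes in comparison I and for 46.4% in II on the same scale, so the separation in II was a common one. The limma difference of *Prdx2* was -0.38 in I (adjusted p = 0.752) and 0.65 in II (adjusted p = 0.337). The direction of the *Prdx2* interaction turned, to 0.24.

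*Gsta4* on the linear RNA scale was -1.13, 0.62 and -0.02 in vehicle TG, -0.997, -2.83 and -0.83 in ISO TG, 1.17, -0.88 and 1.16 in vehicle DTG and 0.53, 0.18 and -0.25 in ISO DTG. ISO TG lay below all ISO DTG arrays. The same was found for 46.4% of all tested probes and for 12 of the 42 other linear RNA probes, so this separation was common. Vehicle TG replicate 1 and vehicle DTG replicate 2 lay within the range of ISO TG. The differences were -1.38 in I (adjusted p = 0.640 in limma) and 1.71 in II (adjusted p = 0.102). The median of the other linear RNA probes, relative to the 75th percentile of the circRNA probes, was between -0.53 and -0.03 in ISO TG, between -0.80 and -0.12 in vehicle TG, between -1.26 and -0.05 in vehicle DTG and between -1.05 and -0.89 in ISO DTG. How far the amount of linear RNA left on each array contributed to the values on either scale was not tested.

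**Figure D4:**
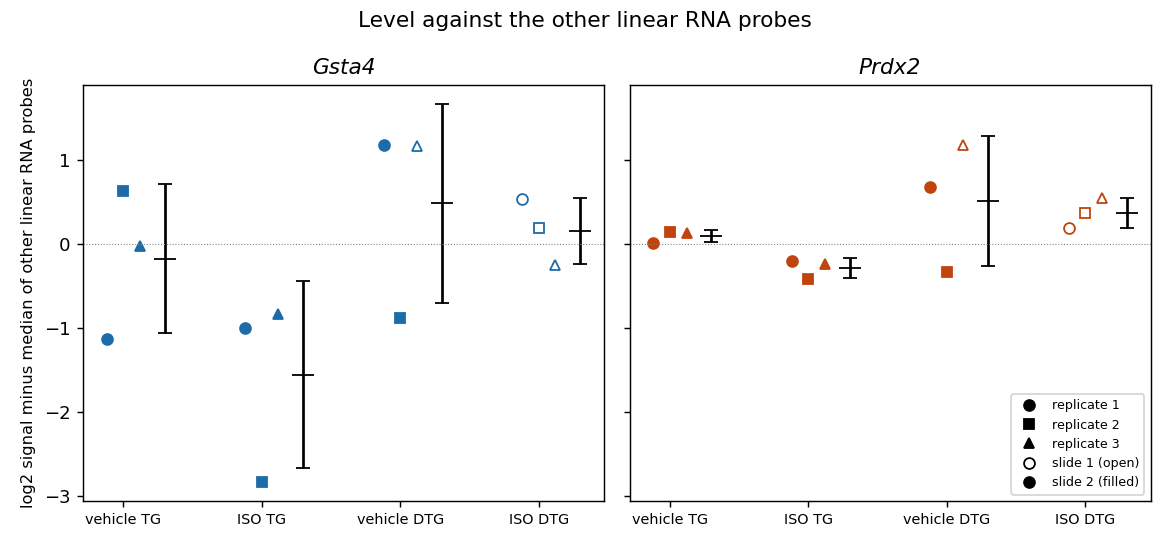
Level of *Gsta4* (left) and *Prdx2* (right) on each array, as log2 processed signal minus the median of 34 other linear RNA probes on the same array, with the symbols of the plot of levels by group and the mean ± SD of 3 arrays. The ISO TG arrays of *Prdx2*, from -0.42 to -0.20, lie below the vehicle TG and ISO DTG arrays, and vehicle DTG replicate 2 at -0.33 lies among them.

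Across the 12 arrays, *Gsta4* and *Prdx2* on the 75th percentile scale had a Pearson r of 0.49 (permutation p = 0.096) and a Spearman rho of 0.27 (permutation p = 0.406). Without ISO TG replicate 2 and vehicle DTG replicate 1, the arrays farthest from the *Gsta4* median, r was 0.08 (permutation p = 0.831, n = 10), so the relation rested on those arrays. Scaled to the other linear RNA probes, r was 0.80 (permutation p = 0.0021, adjusted over the 2 relations 0.0042) and rho 0.83 (permutation p = 0.00146, adjusted 0.00292). Without the same 2 arrays, r was 0.77 (permutation p = 0.00519, adjusted 0.0104). Deviations from the group means had an r of 0.27 on the first scale and 0.65 on the second. On the second scale both genes have the same median subtracted on each array, which by itself adds a shared component. The permutations break this component, so their p-values on that scale do not show a relation between the genes themselves.

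Among 38 linear RNA probes compared with each gene, the pattern over the 12 arrays most like that of *Gsta4* was found for *Hspb7* (r = 0.82), which encodes a small heat shock protein of heart muscle. It was followed by *Acaa2* (r = 0.82) and by *Taf1a* (r = 0.69), a subunit of the RNA polymerase I initiation machinery. Like *Gsta4*, *Hspb7* had its lowest level on ISO TG replicate 2, at 4.01, against 4.40 to 5.46 on the other arrays. The *Acaa2* level was -0.96 and -1.12 on replicates 1 and 2 of ISO TG, but 1.50 on replicate 3. Replicates 1 and 2 lay together for *Acaa2*, whereas for *Gsta4* replicate 1 was nearer to replicate 3 and replicate 2 alone was far from both. The *Acaa2* difference was -0.96 in comparison I and 1.40 in II, with standard errors of 0.66, and it did not pass limma's test (adjusted p = 0.452 and 0.202). *Hspb7* differed by -0.25 in I and 0.34 in II, with standard errors of 0.35 (adjusted p = 0.707 and 0.535 in limma). For *Prdx2* the nearest were *Acaa2* (r = 0.61), *Taf1a* (r = 0.51) and *Gsta4* (r = 0.49). These correlations describe the likeness of the values over the 12 arrays, which share the scaling.

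Of 9 housekeeping genes listed, *Actb* was the only 1 with a linear RNA probe. Its level was 1.50, 2.49 and 4.55 in vehicle TG, 3.33, 3.67 and 1.60 in ISO TG, 2.76, 2.20 and 2.99 in vehicle DTG and 2.24, 2.04 and 1.93 in ISO DTG. The *Actb* arrays of ISO TG with the high levels were replicates 1 and 2, on which *Gsta4* was low. The *Actb* difference was 0.02 in comparison I and -0.80 in II, with standard errors of 0.69 (adjusted p = 0.989 and 0.453 in limma). Over the 12 arrays the r of *Actb* was -0.23 with *Gsta4* and -0.47 with *Prdx2*.

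Sex and age were recorded for each mouse. The female mouse was the highest of its group for *Gsta4* in vehicle DTG and the lowest in vehicle TG and ISO DTG. For *Prdx2* it was the highest in vehicle TG and ISO DTG and the middle 1 in the other groups. Each group held 1 female and 2 male mice, so a sex term could not move the differences between groups, only their standard errors. With age as a term, the *Gsta4* difference was -1.24 in I and 1.29 in II. Neither gene was called with either term.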

How the data were processed

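RNA from the LVs of 12 mice was measured on 1-colour Arraystar circRNA arrays, 1 array per mouse. After RNase R treatment and random-primed Cy3 labeling, the authors deposited spot intensity values from Agilent Feature Extraction version 11.0.1.1. The processed signal is an intensity on a linear scale after this software's background correction, and it was not normalized between arrays. The median signal and the local background intensity, also deposited, were used for the normexp alternative. Arrays have no read depth, and 0 spots of circRNA or linear RNA probes were saturated. The submitters' processing notes also name limma, and the study's own normalization between arrays is not given in the sources used here. No table of gene symbols came with the spots, so accessions were matched to RefSeq genes (GRCm38.p6), and 44 of 50 linear RNA probes matched. Probe sequences and positions in the transcripts are not given in the sources used here.

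Signals were converted to log2, spots marked as outliers were removed (3 of 120 spots for *Gsta4* and 5 of 120 for *Prdx2*), the spots of a probe were averaged, and the 75th percentile of the 14236 circRNA probes was subtracted on each array. The 13032 circRNA and 44 linear RNA probes well above background on at least 3 arrays were tested together with limma version 3.58.1 in R version 4.3.3 (lmFit and eBayes, 4 group means, 3.98 prior degrees of freedom), with Benjamini-Hochberg adjustment over all of them and a limit of 0.05. The same values gave exact permutation tests of 3 arrays against 3, and correlations used 100000 permutations. The scan image identifiers gave 2 slides, slide 1 holding 4 arrays and slide 2 holding 8. The fit was tested on simulated data of 13076 probes, 200 of them changed. Probes were drawn independently, each with the same SD in all groups. The *Gsta4* SD differed between groups, at 1.24 in ISO TG and 0.31 in ISO DTG, so the shares recovered need not hold for it. At the adjusted limit the fit recovered 0% of changes of 1 log2 unit in each comparison. Of changes of 2 units it recovered 61.5% for I and for II, 53.5% for III and 64% for IV, so a difference near 1 that misses the limit is not shown to be absent.

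The genes, lists and tests were chosen with earlier results of these data known. Named are both members, the 3 linear RNA probes most like each by Pearson r, and listed genes with a probe. Alternatives covered other scalings, normexp (offset 50) on the median signal, filters on dim probes, spot handling, slide, replicate number, sex or age in the model, fitting only the 6 arrays compared, array weights, a robust variance trend, the methods' t-test, and omission of each array in turn. Scaling to the 14 circRNA control probes was added after the data were seen. Python version 3.11.15 was used for permutations, and matplotlib version 3.10.9 for figures.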

Additional observations from a re-analysis of the deposited data

How the results depend on the processing

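At the adjusted limit, neither gene was called in any comparison under the alternatives run, except *Gsta4* with array weights, at -2.43 in I (adjusted p = 0.0119 in limma) and 1.78 in II (adjusted p = 0.00829). These weights ran from 0.0878 for vehicle TG replicate 3 to 5.12 for vehicle DTG replicate 1. They raised the probes called from 0 to 2586 of 13076 (I), 6050 of 13069 (II), 655 of 13065 (III) and 1544 of 13065 (interaction). The direction of *Gsta4* was kept in I to IV under every alternative, with a range from -2.43 to -0.21 in I from 0.17 to 1.78 in II, from -0.92 to -0.29 in III and from 0.017 (circRNA control probes) to 0.81 in IV. Its interaction reversed to -0.29 with normexp.

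*Prdx2* in II, which was 0.03, became -0.00152 with the 75th percentile taken over circRNA probes that were well above background throughout, -0.088 with normexp and -0.17 with slide as a block. With normexp, *Prdx2* in I was 0.022, against -1.20 without scaling and -1.10 with the circRNA control probes. In IV it was -0.14 without scaling and -0.22 with the control probes, a scaling chosen after seeing the data. The *Prdx2* interaction was 0.72 without scaling, 0.24 on the linear RNA scale and 0.44 with the control probes. The cause of these reversals was not tested.

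Probes called in II, 0 as reported, were 1 with quantile normalization (and 1 for the interaction), 309 on the linear RNA scale, 249 with normexp, 1893 in the fit to the 6 arrays compared and 6 with the methods' t-test after Benjamini-Hochberg adjustment (3960 at an unadjusted limit of 0.05). With 1 array left out, the count ran from 0 to 142 in I, the latter without ISO TG replicate 3. In II it ran from 0 to 1536, with 1364 without ISO TG replicate 3, 1 without vehicle TG replicate 1 and 1536 without vehicle TG replicate 3. *Prdx2* in II ran from -0.094 (without ISO DTG replicate 3) to 0.21, and was -0.090 without ISO TG replicate 2 and -0.025 without ISO TG replicate 1. The *Gsta4* interaction ran from -0.066, without ISO TG replicate 2, to 1.14.

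The replicate numbers are not stated to mark shared litters or days. Of 18 same-numbered pairs, 4 had a correlation of deviations above 0.1, with a range from -0.367 to 0.361. Among 36 differently numbered pairs 11 did, with a range from -0.424 to 0.607. With the replicate number as a block, 0 probes were called in each comparison. Every group held each replicate number once, so this block could not move the differences themselves. For *Gsta4* these were -1.19 in I (adjusted p = 0.338 in limma) and 1.09 in II (adjusted p = 0.246).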
